A study of Mus musculus with 2 samples.

Results

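The miR-99/100 and miR-125 families were followed in sorted Müller glia (MG), the radial glia that span the retina, after deletion of Dicer1. Their members were the 5 mouse miRNAs read by the probes mmu-miR-99a, mmu-miR-100, mmu-miR-99b, mmu-miR-125b-5p and mmu-miR-125a-5p, of 566 mouse miRNA probes and 626 probes in all, and they were chosen by name. Dicer1 encodes the nuclease that cuts miRNA hairpins into the mature miRNA. Cells came from adult mice (older than postnatal day 21) and were sorted for tdTomato. The Dicer-CKO_MG library was pooled from 26 retinas of Rlbp1-CreER:tdTomato:Dicerf/f mice, and the wild-type library from 40 retinas of Rlbp1-CreER:tdTomato mice. The extraction text of the wild-type sample states 26 retinas, whereas its description gives 40. Mice of both groups carried the tamoxifen-inducible CreER under the Rlbp1 promoter and the floxed tdTomato reporter (Ai14, a line on the 129SvJ background per the study's methods), and both received 75 mg/kg tamoxifen at postnatal days 11 to 14. The Rlbp1 promoter is also active in some cells of the retinal pigment epithelium. In RNA sequencing of sorted Dicer-CKO_MG cells, part of the reads still held the floxed exon, and the study proposes that the deletion was incomplete. Each group had 1 library, so the differences below have no replicate check, and no p-value is given.

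miR-125 is the vertebrate relative of lin-4, the first miRNA found in the worm Caenorhabditis elegans, where lin-4 and let-7 time the steps of larval development. In mammals, miR-125b and let-7 both rise as neural tissue matures and repress Lin28, and miR-99/100 miRNAs are known to repress the mTOR kinase. Members of the miR-99/100, let-7 and miR-125 families lie together on the genome in that order and can be made from one long primary transcript, so that their levels can be set against each other within a cluster.

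The mature sequences show how alike the probes' targets are. All 5 members matched a RefSeq mature sequence (GRCm38.p6). They are printed 5′ to 3′ with bases 2 to 8, the seed that pairs with target mRNAs, in capitals, followed by the 3 let-7 miRNAs of the same clusters.
miR-99a-5p: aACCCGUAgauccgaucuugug
miR-100-5p: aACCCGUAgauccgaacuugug
miR-99b-5p: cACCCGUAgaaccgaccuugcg
miR-125b-5p: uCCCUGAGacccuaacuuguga
miR-125a-5p: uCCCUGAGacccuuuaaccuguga
let-7c-5p: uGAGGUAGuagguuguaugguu
let-7a-5p: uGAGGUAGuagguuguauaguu
let-7e-5p: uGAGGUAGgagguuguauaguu
miR-99a and miR-100 differ at 1 base (U16A, counted from the 5′ end, with the miR-99a base first). miR-99b differs from miR-99a at 4 bases (A1C, U11A, U16C and U21C), none of them in the seed. miR-125b-5p, 22 bases long, and miR-125a-5p, 24 bases long, share their first 13 and last 5 bases. The seed of miR-99/100 occurs in 3 of 1679 mature mouse miRNA names in the RefSeq table (0.179%), which are these 3 members. The seed of miR-125 occurs in 5 of 1679 (0.298%), and besides the members 1 of them, miR-351, is on the panel. let-7a differs from let-7c at 1 base (G19A, let-7c base first) and from let-7e at 1 base (U9G, let-7a base first). Whether probes for such near-identical miRNAs read each other in part was not tested.

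In the assay, mature miRNAs are ligated to tags and hybridised to barcoded probes, and single barcodes are counted without amplification. The Dicer-CKO_MG library held 139812 barcodes and the wild-type library 769736. The 8 negative controls averaged 20.4 raw counts in Dicer-CKO_MG, against 38.6 in wild-type, and a probe was called detected above their mean plus 2 SD, that is above 53.2 raw counts in Dicer-CKO_MG, against 71.7 in wild-type. Normalized counts are raw counts minus the mean negative control, scaled to the 6 positive controls and then to 4 housekeeping mRNAs (Actb, Gapdh, Rpl19, B2m). On this scale a probe passed the limit above 90.0 in Dicer-CKO_MG, against 23.6 in wild-type. Of the miRNAs fixed as MG markers, all 4 (miR-204, miR-9, miR-181a and miR-125b-5p itself) were detected in both libraries and all 4 were lower in Dicer-CKO_MG, with a summed normalized count of 46510 in Dicer-CKO_MG, against 322020 in wild-type MG. Of 19 miRNAs typical of neurons, photoreceptors, immune cells, blood vessels or erythrocytes, 10 were detected in Dicer-CKO_MG, with a summed normalized count of 13664, and 11 in wild-type, with a sum of 1956. All 10 that were measured in both were above wild-type on the housekeeping scale. Where the wild-type level was below 90.0, detection in Dicer-CKO_MG already required a higher level there. This fixed the direction of miR-150 (76.1 normalized in wild-type), miR-146a (61.8), miR-142-3p (24.6) and miR-132 (73.3). The rest of the 10 had wild-type levels above 90.0 and could have come out lower. The erythrocyte miRNAs miR-451 and miR-144 were detected in neither library. The part of these other cells in the results below was not tested, and in a pooled library fewer cells of a type and less RNA per cell cannot be told apart.

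On the housekeeping scale all 3 members of the miR-99/100 family fell in Dicer-CKO_MG, and the call of miR-99b was lost on 2 other scales (51.0% of wild-type when scaled to the 100 highest miRNAs and 111% when scaled to summed miRNA counts). miR-99a had 537 raw counts in the Dicer-CKO_MG library (1415 after normalization), against 17195 in the wild-type library (12281 after normalization). Its level in Dicer-CKO_MG was 11.5% of wild-type (95% counting interval 10.5 to 12.6%), a log2 ratio of -3.12. miR-100 had 139 raw counts in Dicer-CKO_MG (325.01 normalized), against 4910 in wild-type (3487 normalized). It was left at 9.32% (7.49 to 11.6%), a log2 ratio of -3.42. miR-99b was scarce in both libraries, with 61 raw counts in Dicer-CKO_MG (111.3 normalized), against 623 in wild-type (418.3 normalized). Its level was 26.6% of wild-type (16.5 to 42.9%), a log2 ratio of -1.91. The raw Dicer-CKO_MG count of miR-99b lay close to background, since the highest negative control of that library had 59 counts and the exact 95% Poisson interval of the miR-99b count was 46.7 to 78.4. With the full spread of the negative controls in place of the error of their mean, its interval was 10.998 to 64.4%. Counting intervals cover only the counting error of the probe itself and the error of the mean negative control. They leave out the error of the housekeeping scale. In Dicer-CKO_MG that scale rested on 1939 raw counts of Actb, but on 161 of Gapdh, 179 of Rpl19 and 134 of B2m. In wild-type the raw counts were 7024 for Actb, 730 for Gapdh, 681 for Rpl19 and 375 for B2m. The scale treats this difference as one between libraries, which raises the levels given as remaining.

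Both members of the miR-125 family fell as well. miR-125b-5p was the second most abundant mouse miRNA in each library. It had 4138 raw counts in Dicer-CKO_MG (11282 normalized), against 94931 in wild-type (67928 normalized), and was left at 16.6% (16.1 to 17.1%), a log2 ratio of -2.59. With a housekeeping gene left out, the level of miR-125b-5p was 15.3% (Gapdh), 16.3% (Rpl19), 16.9% (Actb) or 18.1% (B2m). The values without Gapdh and without B2m lay outside the counting interval, which leaves out the error of the scale. miR-125a-5p had 170 raw counts in Dicer-CKO_MG (409.9 normalized), against 4921 in wild-type (3495 normalized), and was left at 11.7% (9.71 to 14.2%), a log2 ratio of -3.09. The order of the normalized counts was the same in both libraries, with miR-125b-5p above miR-99a, miR-125a-5p, miR-100 and miR-99b. The neighbours miR-125a-5p and miR-100 had raw counts of 170 and 139 in Dicer-CKO_MG and of 4921 and 4910 in wild-type, and their exact Poisson intervals overlapped in either library. Probes can bind with unequal strength, so an order of levels across miRNAs is only approximate.

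**Figure D1:**
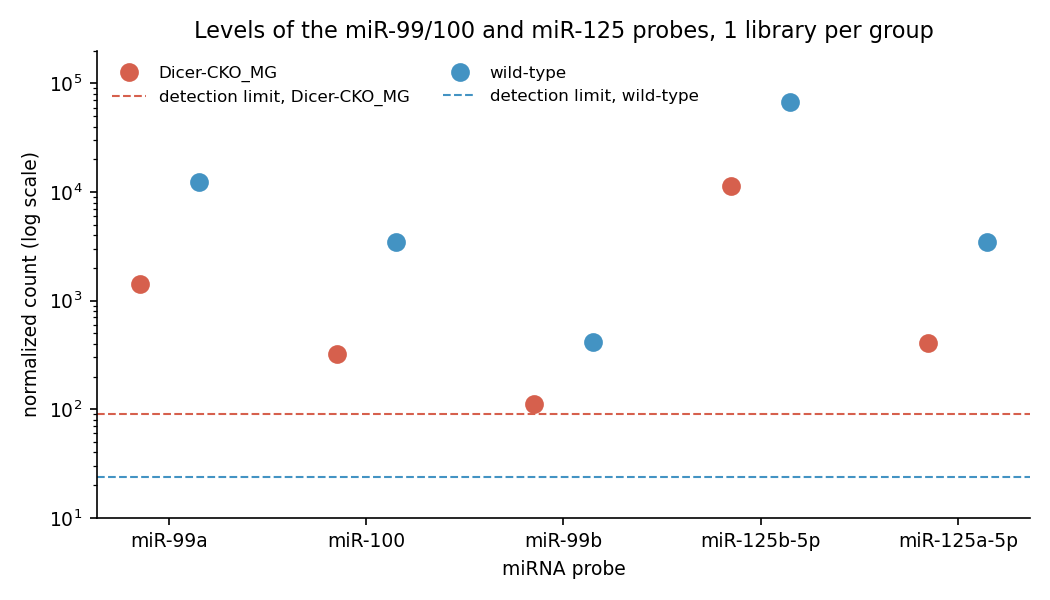
Normalized count (log scale) of each member in the Dicer-CKO_MG library (red, left) and the wild-type library (blue, right), 1 library per group, with dashed lines at the detection limits of 90.0 and 23.6. Each member lies lower in Dicer-CKO_MG, and miR-99b, at 111.3, lies just above the limit of that library.

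A miRNA was called lower where no more than 1/2 of the wild-type level remained and the interval lay below equality. All 5 members were detected in both libraries and all 5 were called lower. Of the 174 mouse miRNAs detected in either library 52 passed as lower (29.9%) and 21 as higher in Dicer-CKO_MG (12.1%). Among the 74 detected in both libraries, 41 were lower (55.4%). The median log2 ratio of the 5 members was -3.09, beside -1.12 over the 74 miRNAs detected in both. Because the detection limit was higher in Dicer-CKO_MG, scarce miRNAs entered the 74 only where they had not declined much. Of those left out, miR-1927 kept at most 9.73% of its wild-type level and miR-191 at most 16.2%. These bounds lie below the 11.5% of miR-99a and the 16.6% of miR-125b-5p, respectively. Ordered by log2 ratio among the 74, miR-100 had the lowest value, miR-99a was at rank 3, miR-125a-5p at rank 4, miR-125b-5p at rank 6 and miR-99b at rank 18. Among the 23 miRNAs with the highest wild-type counts, 4 were members, and they took ranks 1, 3, 4 and 5 of the log2 ratio.

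**Figure D2:**
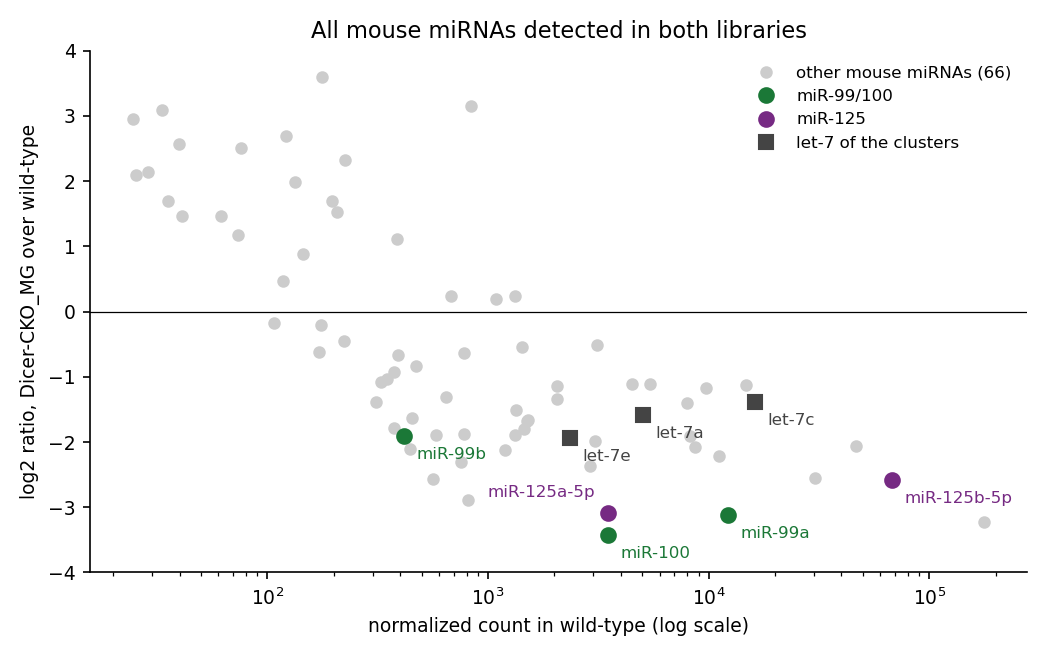
Log2 ratio of Dicer-CKO_MG over wild-type against the normalized count in wild-type (log scale) for the 74 mouse miRNAs detected in both libraries, with the members in green and purple, the cluster let-7 miRNAs as dark squares and the others in grey. All members but miR-99b lie at the lower edge, between -3.42 and -2.59, and miR-99b lies at -1.91 among the others.

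Among the other miRNAs detected in both libraries, the log2 ratios closest to the members' median were those of miR-204 (-3.23), miR-1960 (-2.90), miR-1965 (-2.57), miR-181a (-2.56) and miR-30d (-2.36). miR-204, the most abundant miRNA of wild-type MG, was left at 10.7% of wild-type (10.4 to 10.9%). miR-1960 and miR-1965 rested on raw Dicer-CKO_MG counts of 60 and 55, close to background.

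The members also took a smaller part of the miRNA signal, a measure in which the scale of a library cancels. Together they made up 11.7% of the background-subtracted counts of all detected mouse miRNAs in Dicer-CKO_MG and 18.1% in wild-type. In raw counts these shares were 5045 of 43834 barcodes in Dicer-CKO_MG (11.5%, exact 95% binomial interval 11.2 to 11.8%) and 122580 of 682260 in wild-type (18.0%, 17.9 to 18.1%). Without miR-204 in the denominator the shares were 14.0% for Dicer-CKO_MG and 28.6% for wild-type MG. miR-125b-5p alone made up 83.3% of the members' counts in Dicer-CKO_MG, against 77.5% in wild-type MG. Within the miR-99/100 family, the Dicer-CKO_MG counts were 76.4% miR-99a, 17.6% miR-100 and 6.01% miR-99b, and the wild-type counts 75.9% miR-99a, 21.5% miR-100 and 2.58% miR-99b. The miR-99b share in Dicer-CKO_MG rested on 61 raw counts, close to the highest negative control of 59. Whether its direction holds with a stricter background was not tested. The 3 let-7 miRNAs of the same clusters, in contrast, made up 7.32% of the counts of detected miRNAs in Dicer-CKO_MG and 4.88% in wild-type. Summed over the 5 members, the normalized count came to 13543 in Dicer-CKO_MG, against 87610 in wild-type, which left 15.5%, and 11.4% for the miR-99/100 family against 16.4% for the miR-125 family.

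The genes of the 5 members form 3 clusters in the mouse genome (GRCm38.p6). On chromosome 16, Mir99a (77598936 to 77599000), Mirlet7c-1 and Mir125b-2 span 47408 bp, with 46522 bp between Mirlet7c-1 and Mir125b-2, and no RefSeq gene in the table used contains them. On chromosome 9, Mir100 (41531425 to 41531504), Mirlet7a-2 and Mir125b-1 span 50578 bp and lie within Mir100hg, a long non-coding RNA gene (41376526 to 41615185). On chromosome 17, Mir99b (17830188 to 17830257), Mirlet7e and Mir125a lie within 692 bp, inside the bounds of the protein-coding gene Spaca6 (17826085 to 17843010). The chromosome 17 cluster is thus far more compact than the other clusters, and it is the only one whose 3 mature miRNAs each have 1 gene in the table. miR-125b-5p is made from both Mir125b-1 and Mir125b-2, let-7c also from Mirlet7c-2 on chromosome 15, and let-7a also from Mirlet7a-1 on chromosome 13, and a probe cannot tell these sources apart. The hairpins of miR-100 and miR-125b-1, which come from the same cluster, are printed with the measured 5p arm in capitals to show where it lies in the hairpin.
Mir100: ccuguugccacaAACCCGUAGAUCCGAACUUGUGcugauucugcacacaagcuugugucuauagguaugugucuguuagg
Mir125b-1: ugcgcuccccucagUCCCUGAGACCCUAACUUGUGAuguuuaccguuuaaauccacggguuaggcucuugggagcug

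**Figure D3:**
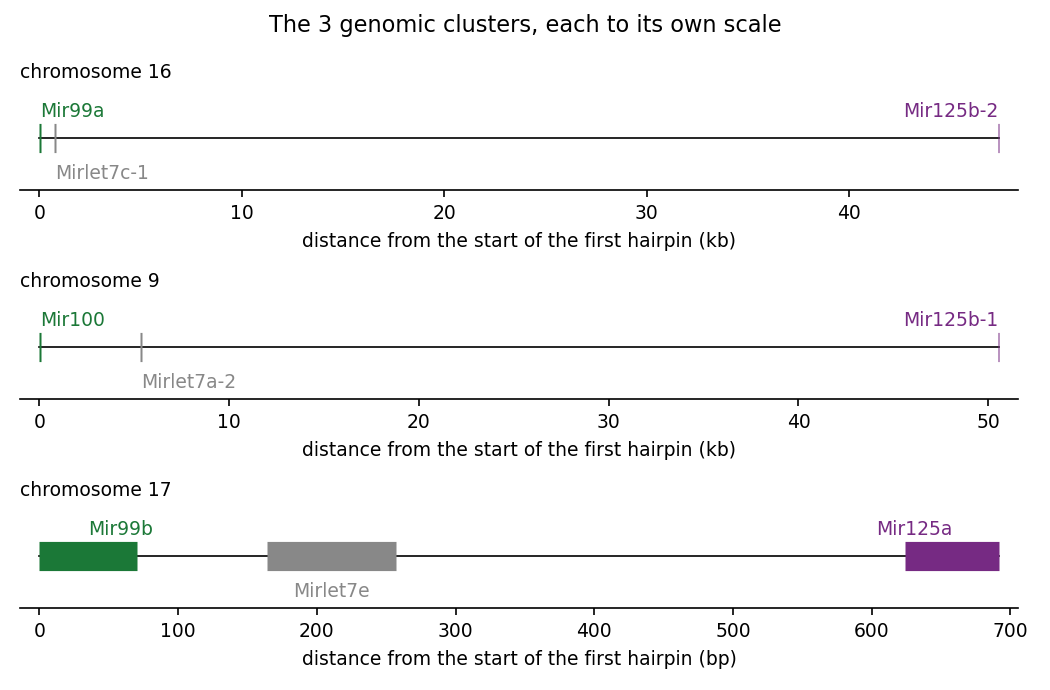
Positions of the miRNA hairpins in the 3 clusters as distance from the start of the first hairpin, in kb for chromosomes 16 and 9 and in bp for chromosome 17, with miR-99/100 genes in green, let-7 in grey and miR-125 in purple. The clusters on chromosomes 16 and 9 span 47408 and 50578 bp, and that on chromosome 17 spans 692 bp.

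Of the 5 members, 4 were reduced more than the let-7 miRNA of their own cluster. Other miRNAs also fell more than these let-7 miRNAs. Ordered by log2 ratio among the 74 detected in both libraries, let-7c was at rank 31, let-7a at rank 28 and let-7e at rank 17. Among the 23 miRNAs with the highest wild-type counts, they were at ranks 16, 14 and 12. The comparisons of members with let-7 do not depend on the scale of a library, because both probes were read in the same library. On chromosome 16, miR-99a had 0.229 times the count of let-7c in Dicer-CKO_MG and 0.757 times in wild-type. Its log2 ratio was lower than that of let-7c by a difference of -1.73 (95% counting interval -1.87 to -1.58), with 38.1% of let-7c remaining (36.5 to 39.8%). On chromosome 9, miR-100 had 0.194 times the count of let-7a in Dicer-CKO_MG and 0.692 times in wild-type. The difference was -1.84 (-2.17 to -1.50), and 33.3% of let-7a remained (30.5 to 36.2%). miR-125b-5p, which both clusters make, differed from let-7c by -1.20 (-1.28 to -1.12) and from let-7a by -1.002 (-1.13 to -0.87).

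On chromosome 17, miR-125a-5p had 0.672 times the count of let-7e in Dicer-CKO_MG and 1.49 times in wild-type. The difference of their log2 ratios was -1.15 (-1.50 to -0.80), with 26.0% of let-7e remaining (22.3 to 30.2%). miR-99b had 0.182 times the count of let-7e in Dicer-CKO_MG and 0.178 times in wild-type. The difference was 0.04 (-0.69 to 0.76), and an interval of this width does not show that miR-99b and let-7e declined alike. With a stricter background, the negative controls' mean plus 2 SD, it was -2.05. Of the 6 comparisons with let-7, 5 had an interval that excluded 0, also with the full spread of the negative controls. In the whole let-7 family, 7 of 9 members were called lower, beside the 29.9% of all 174 miRNAs and 55.4% of the 74 detected in both. The Dicer-CKO_MG count of miR-98 was at background and gave only an upper bound. No let-7 member detected in both libraries fell as much as miR-125b-5p, the strongest decline among them being that of let-7b with 21.5% remaining. The let-7 sequences hold less G and C (36.4 to 40.9%) than those of the members (50%, and 63.6% for miR-99b), and the part of base composition in these differences was not tested.

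**Figure D4:**
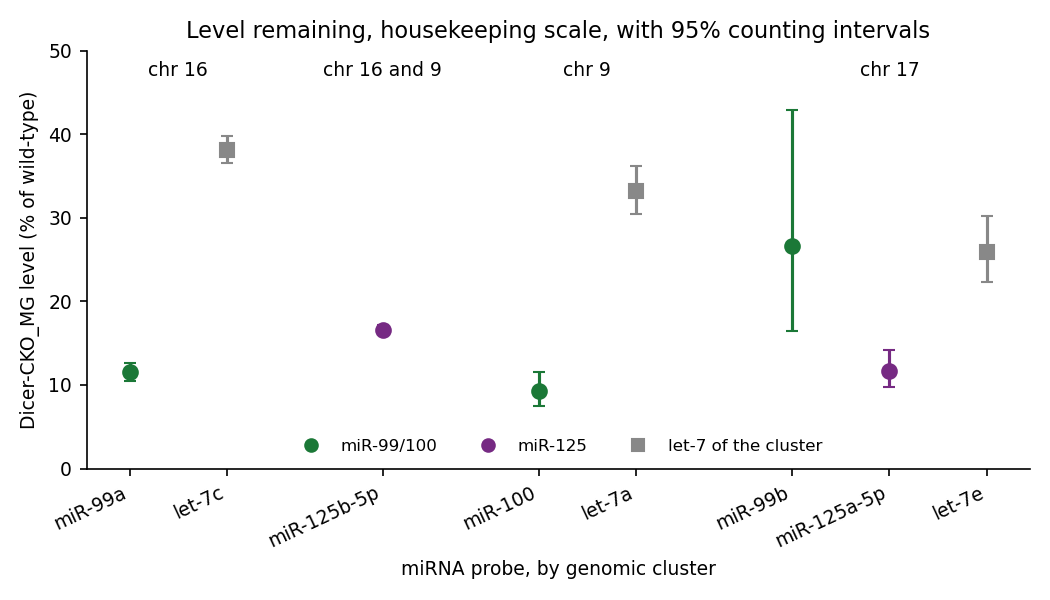
Level in Dicer-CKO_MG as percent of wild-type on the housekeeping scale, with 95% counting intervals, for the members (circles) and the let-7 miRNAs of their clusters (squares), grouped by chromosome. miR-99a, miR-100, miR-125b-5p and miR-125a-5p lie between 9.32 and 16.6%, below all 3 let-7 miRNAs (26.0 to 38.1%), and the wide interval of miR-99b overlaps that of let-7e.

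The members were also compared with each other, in 10 pairs. The closest paralogs, miR-99a and miR-100, which differ at 1 base and lie on different chromosomes, had log2 ratios that differed by 0.31 (-0.04 to 0.65), an interval that holds 0 but also differences of up to 0.65. miR-99a and miR-125a-5p differed by -0.03 (-0.33 to 0.28) and miR-100 and miR-125a-5p by -0.33 (-0.75 to 0.09). miR-125b-5p kept more of its level than these 3. Its log2 ratio was above that of miR-125a-5p by 0.50 (0.23 to 0.78), and miR-99a and miR-100 were below it by differences of -0.53 (-0.67 to -0.39) and -0.83 (-1.15 to -0.51). For the clusters on chromosomes 16 and 9 together, the summed count of miR-99a and miR-100 was 0.154 times that of miR-125b-5p in Dicer-CKO_MG and 0.232 times in wild-type, a 1.505-fold lower ratio (1.37 to 1.65). miR-125b-5p was 27.5 times as high as miR-125a-5p in Dicer-CKO_MG and 19.4 times in wild-type.

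The place of miR-99b among the members was not settled. With the mean of the negative controls as background, miR-99b lay above its cluster neighbour miR-125a-5p by 1.18 on the log2 scale (0.44 to 1.92), and miR-99a and miR-100 lay below it by differences of -1.21 (-1.91 to -0.51) and -1.51 (-2.27 to -0.76). The difference from miR-125b-5p was 0.68 (-0.01 to 1.37). With the stricter background, which leaves miR-99b few counts in Dicer-CKO_MG, the direction turned in all 4 pairs, with differences of -0.77 between miR-99b and miR-125a-5p, -1.61 between miR-99b and miR-125b-5p, 1.00 between miR-99a and miR-99b and 0.33 between miR-100 and miR-99b. With the full spread of the negative controls, the intervals between miR-99b and miR-125a-5p (-0.15 to 2.52) and between miR-99a and miR-99b (-2.49 to 0.08) also held 0, and that between miR-100 and miR-99b (-2.88 to -0.15) did not.

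The panel held 2 probes for the opposite arm of these hairpins, which is usually degraded once the mature strand is loaded. miR-125b-3p had 37 raw counts in Dicer-CKO_MG, below the limit, and 500 in wild-type, so that at most 27.3% of its wild-type level of 330.3 remained (24.7 to 30.1% from the counting error of wild-type). The file does not give which of the miR-125b genes this probe reads. miR-125a-3p had 37 raw counts in Dicer-CKO_MG, against 120 in wild-type, and since its wild-type level of 58.3 lay below the Dicer-CKO_MG limit of 90.0, its direction could not be read. miR-351, an X-linked rodent miRNA with the miR-125 seed, was not detected in either library, with 9 raw counts in Dicer-CKO_MG, against 11 in wild-type.

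The size of the decline depended on how the libraries were scaled, which moves all members by the same factor. Scaled to the positive controls only, from 1.72% (miR-100) to 4.90% (miR-99b) of the wild-type level remained, and all 5 members were called lower, beside 137 of 174 miRNAs (78.7%), or 58 of the 74 detected in both (78.4%), with 2 of 174 called higher (1.15%). Scaled to the geometric mean of the 100 highest miRNAs, from 17.8 to 51.0% remained and 4 members were called lower, all but miR-99b. On that scale 21 of 174 miRNAs were called lower (12.1%) and 26 higher (14.9%), and among the 74 detected in both 17 were lower (23%). When each library was scaled to its summed miRNA counts, so that a shift shared by every miRNA drops out, 3 members were called lower. Of all miRNAs 5 of the 174 were called lower (2.87%) and 37 higher (21.3%). Among the 74 detected in both, 4 were lower (5.41%). The 3 members were miR-100 with 38.9% (31.3 to 48.5%), miR-99a with 48.1% (43.9 to 52.8%) and miR-125a-5p with 49.0% (40.6 to 59.2%). On that scale miR-125b-5p was at 69.4% (67.2 to 71.6%), within 2-fold of equality, and miR-99b at 111% (68.9 to 179%).

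**Figure D5:**
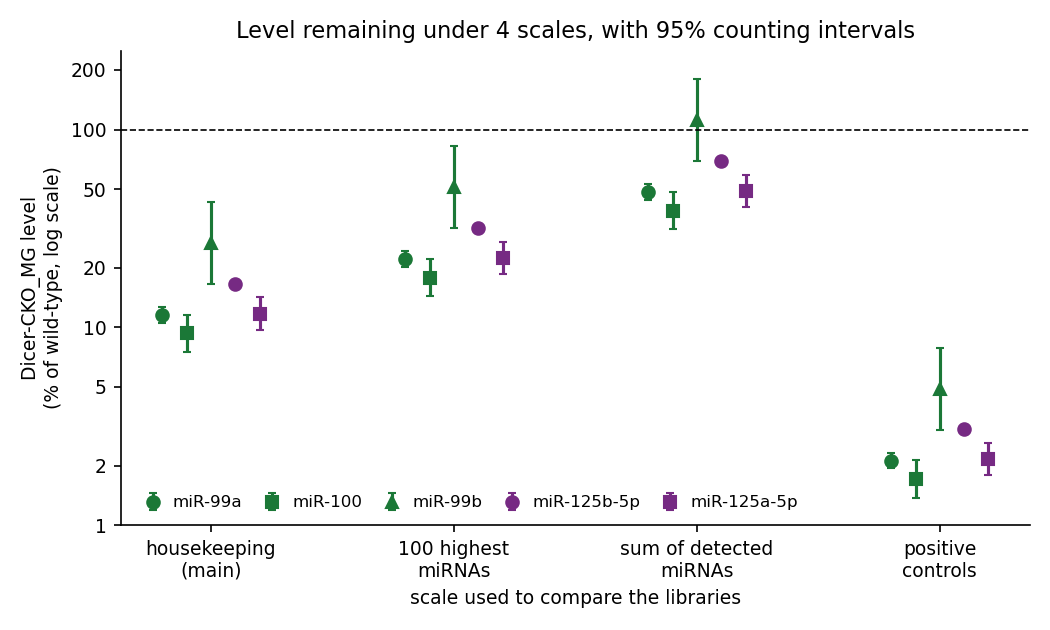
Level in Dicer-CKO_MG as percent of wild-type (log scale) for the 5 members under 4 scales, with 95% counting intervals and a dashed line at equality. All members shift together by scale, and miR-99b, at 111% on the scale of summed miRNA counts, is the only value above the line.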

How the data were processed

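miRNAs were measured by NanoString nCounter in 2 pooled libraries, 1 per group. The authors deposited the barcode counts of each probe, unprocessed, and a second table whose normalized values (a score) are whole numbers. By the methods, that table came from nSolver 2.6 with 4 housekeeping genes, 8 negative and 6 positive controls. The raw counts were normalized anew with Python 3.11.15 and scipy 1.17.1. Background, the mean negative control, was subtracted, and geometric means of the positive controls and then of the housekeeping genes set the scale. Results were 1.14 times the deposited normalized values in both libraries (median of probes detected in both). Intervals are 95% intervals on the log scale, from the Poisson variance of each raw count and the variance of the mean negative control. They leave out the error of the positive control and housekeeping counts that set the scale. No test across samples was possible. The steps were also run on simulated miRNA counts with known ratios. The control and housekeeping counts were kept fixed there, so errors of the scale or the background could not show. Positions and sequences came from RefSeq tables of GRCm38.p6.

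Named miRNAs were the members, the let-7 probes of their clusters, other arms and seed relatives on the panel, and the 5 miRNAs nearest to the members' median log2 ratio. Members and lists were chosen with earlier results of these data known.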

Additional observations from a re-analysis of the deposited data

How the results depend on the processing

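No paired analysis was possible because each group had 1 library. Of the 19 alternatives, all but 1 gave 4 or 5 members called lower, and 3 were called when the libraries were scaled to the sum of detected miRNAs. Where the background was changed, the intervals behind the calls were still built on the mean negative control. Under the stricter backgrounds they are therefore too narrow for miR-99b, and its call there carries little weight. The members' median log2 ratio was -5.53 with positive controls only, -5.48 with ligation controls, -4.86 with raw counts, -2.15 with the 100 highest miRNAs and -1.03 with the sum of detected miRNAs, and lay from -3.21 to -2.97 under the others that bear on it, which left out a housekeeping gene, used the deposited normalized values or changed the background. On the sum scale the log2 ratio of miR-99b was 0.15 and turned direction. With the mean plus 2 SD or the highest negative control as background, the difference of miR-100 from let-7a was -2.22 and -2.31, and that of miR-99b from let-7e -2.05 and -3.99. With the same backgrounds, the difference turned for miR-99a from miR-99b (1.00 and 2.97), miR-100 from miR-99b (0.33 and 2.21), miR-99b from miR-125a-5p (-0.77 and -2.68), miR-99b from miR-125b-5p (-1.61 and -3.59) and miR-99a from miR-125a-5p (0.23 and 0.29), the last 2 of which had intervals that held 0. The difference was 0.67 and 0.76 for miR-99a from miR-100, -1.28 and -1.38 for miR-100 from miR-125b-5p and 0.84 and 0.91 for miR-125b-5p from miR-125a-5p. In all, 64 of 65 log2 ratios of members and 52 of 64 differences kept their sign. On the sum scale miR-125b-5p, and on the scale of the 100 highest miRNAs miR-99b, kept their direction but lost their call. Both backgrounds leave miR-99b few counts in Dicer-CKO_MG, so depth limits what can be said of it. The interval with the full spread of the controls, the comparisons among members under other backgrounds and the shares with other denominators were added after seeing the data.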
